A study of Mus musculus with 16 samples.

Results

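The genes that write, read and erase DNA methylation are themselves packaged in methylated and unmethylated DNA, and their own methylation was described here in immortalised mouse embryonic fibroblasts (MEFs). The 7 genes were Dnmt1, Uhrf1, Dnmt3b, Dnmt3l, Tet1, Tet2 and Tet3, and a CpG was counted as belonging to a gene when it lay between 2000 bp upstream of the gene's first start and the gene's end (GENCODE M21 on mm10). This gave 549 of the 1203687 CpGs measured in every library, with 58 at Dnmt1, 54 at Uhrf1, 64 at Dnmt3b, 67 at Dnmt3l, 98 at Tet1, 88 at Tet2 and 120 at Tet3. Dnmt3a lies on chromosome 12 and was not analysed here. The cells came from 2 sibling C57BL/6J embryos taken at E13.5 and were immortalised by serial passage, giving the parental cultures MEF-1 and MEF-2. Single cells sorted from each culture were grown into 7 clonal lines per family, and each of the 16 cultures was sequenced once by target capture bisulfite sequencing, which reports methylated and unmethylated reads at each CpG. The lines of a family all descend from 1 embryo, and no engineered allele or treatment is given for any of them. MEF-1 is described as male and MEF-2 as female. Embryo, sex and passage history therefore cannot be told apart in any difference between the families. The p-values of that comparison measure only the spread between lines and counting error, and those of a line against its parental library only counting error.

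DNA methylation in mammals sits mainly on the cytosine of CpG dinucleotides and is copied at each cell division. DNMT1 is the maintenance methyltransferase and UHRF1 recruits it to newly replicated, half-methylated CpGs. DNMT3B places methylation on unmethylated DNA, and DNMT3L is a partner without catalytic activity that stimulates the de novo enzymes, mainly in germ cells and early embryos. TET1, TET2 and TET3 oxidise 5-methylcytosine and so start its removal. Promoters of active genes with many CpGs are usually free of methylation while the bodies of these genes are usually methylated, and several of the 7 genes are known to be transcribed from more than 1 promoter.

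The sequences of 7 windows are printed because the results below return to differences between the families or among the lines within them. The sequences are from GRCm38, which has the mm10 coordinates, and run 5′ to 3′ on the strand of the gene. Capitals mark the CpGs that were measured, which in these windows are all the CpGs of the reference.
Uhrf1, upstream, chr17:56302770-56302910, plus strand: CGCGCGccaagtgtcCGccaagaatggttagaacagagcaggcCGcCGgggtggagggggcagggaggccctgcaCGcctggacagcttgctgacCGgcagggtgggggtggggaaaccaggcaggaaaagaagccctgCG
Dnmt3b, first intron, chr2:153650460-153650723, plus strand: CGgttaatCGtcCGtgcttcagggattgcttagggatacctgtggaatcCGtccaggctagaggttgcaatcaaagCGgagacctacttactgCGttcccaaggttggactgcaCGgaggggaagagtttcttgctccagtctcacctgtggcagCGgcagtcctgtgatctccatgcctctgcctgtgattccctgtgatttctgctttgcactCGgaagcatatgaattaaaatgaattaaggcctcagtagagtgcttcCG
Dnmt3l, intron, chr10:78043614-78043859, plus strand: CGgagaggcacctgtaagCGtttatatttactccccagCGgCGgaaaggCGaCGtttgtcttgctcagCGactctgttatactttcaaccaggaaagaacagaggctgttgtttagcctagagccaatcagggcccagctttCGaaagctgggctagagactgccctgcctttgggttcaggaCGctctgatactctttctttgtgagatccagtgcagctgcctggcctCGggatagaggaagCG
Tet1, upstream of start 4, chr10:62887559-62887815, minus strand: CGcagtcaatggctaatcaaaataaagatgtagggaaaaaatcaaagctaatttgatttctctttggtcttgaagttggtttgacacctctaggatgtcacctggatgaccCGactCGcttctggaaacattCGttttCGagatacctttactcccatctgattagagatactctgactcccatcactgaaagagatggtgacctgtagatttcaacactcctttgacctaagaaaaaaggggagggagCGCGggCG
Tet2, upstream of start 1, chr3:133545392-133545540, minus strand: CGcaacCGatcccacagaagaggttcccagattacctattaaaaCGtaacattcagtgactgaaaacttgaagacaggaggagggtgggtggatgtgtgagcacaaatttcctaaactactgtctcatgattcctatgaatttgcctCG
Tet3, upstream of start 3, chr6:83442134-83442396, minus strand: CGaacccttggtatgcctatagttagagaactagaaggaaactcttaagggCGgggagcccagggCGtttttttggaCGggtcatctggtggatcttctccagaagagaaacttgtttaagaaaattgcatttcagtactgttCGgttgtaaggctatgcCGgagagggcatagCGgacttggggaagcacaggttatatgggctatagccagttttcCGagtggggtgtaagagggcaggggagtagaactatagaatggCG
Tet3, downstream of start 3, chr6:83439612-83439896, minus strand: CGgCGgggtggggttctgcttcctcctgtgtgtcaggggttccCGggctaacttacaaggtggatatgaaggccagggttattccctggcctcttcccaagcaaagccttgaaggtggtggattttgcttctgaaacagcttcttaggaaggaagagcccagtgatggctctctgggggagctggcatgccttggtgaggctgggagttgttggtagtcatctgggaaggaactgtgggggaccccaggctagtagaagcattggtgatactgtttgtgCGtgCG
The Uhrf1, Tet1 and Tet3 upstream windows end toward the unmethylated stretch of their gene, and the Dnmt3b window begins where such a stretch ends, while the Dnmt3b CpGs with the largest differences between the families lie past its other end. The Tet3 downstream window holds only 5 CpGs and lies in an exon of a transcript that does not code for protein.

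Total read calls at CpGs ranged from 59243669 to 90633091 per library, and the median coverage of a measured CpG from 26 to 39 reads. The members had a median of 29.5 reads per CpG against 31 over all CpGs, with 10 reads as the lowest by construction, so a level at 1 CpG in 1 library is coarse and sums over CpGs are firmer. As a check of the cell type, the start windows of the fibroblast genes Vim, Fbn1 and Col1a2 and the second start window of Col1a1 were below 5% in all 16 libraries, those of the blood genes Ptprc and Spi1 were at 68.4 to 89.3%, and the first start window of the germline gene Dazl was at or above 95.2%. Other fibroblast windows went against this, with Thy1 at 87.5 to 98.4%, Col1a1 start 3 at 0.617 to 43.2% and Col1a1 start 4 at 27.8 to 82.6%, the last 2 differing between the families. Among epithelial genes Krt8 was at 72.9 to 98.6%, but Krt18 was at 25.1 to 54.6%, Cdh1 at 6.73 to 66.1% and Epcam at 5.09 to 39.3%. Of the pluripotency and other germline windows, Ddx4 was at 70.9 to 98.9%, Nanog at 46.7 to 78%, Pou5f1 at 26.9 to 78.5% over its 3 windows and Dazl start 2 at 50 to 67.5%. The markers therefore fit the label only in part. MEF-1 lines 1, 4 and 5 stood apart in being close to their parental library, from which 1.34 to 1.54% of all CpGs differed by Fisher's exact test against 4.54 to 5.53% in the other MEF-1 lines, and called regions that were no longer called without them are named as such.

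Of the 549 CpGs, 169 averaged under 10% over the 14 clonal lines, 187 averaged 90% or more and 193 lay between. These shares were 30.8, 34.1 and 35.2%, against 38.7, 23.3 and 38.1% over all CpGs, so the members held relatively more highly methylated CpGs and fewer unmethylated ones. The split differed widely from gene to gene. At Uhrf1, 38 of 54 CpGs were under 10% and 1 was at 90% or more, while at Tet3 only 12 of 120 were under 10% and 64 were at 90% or more.

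**Figure D1:**
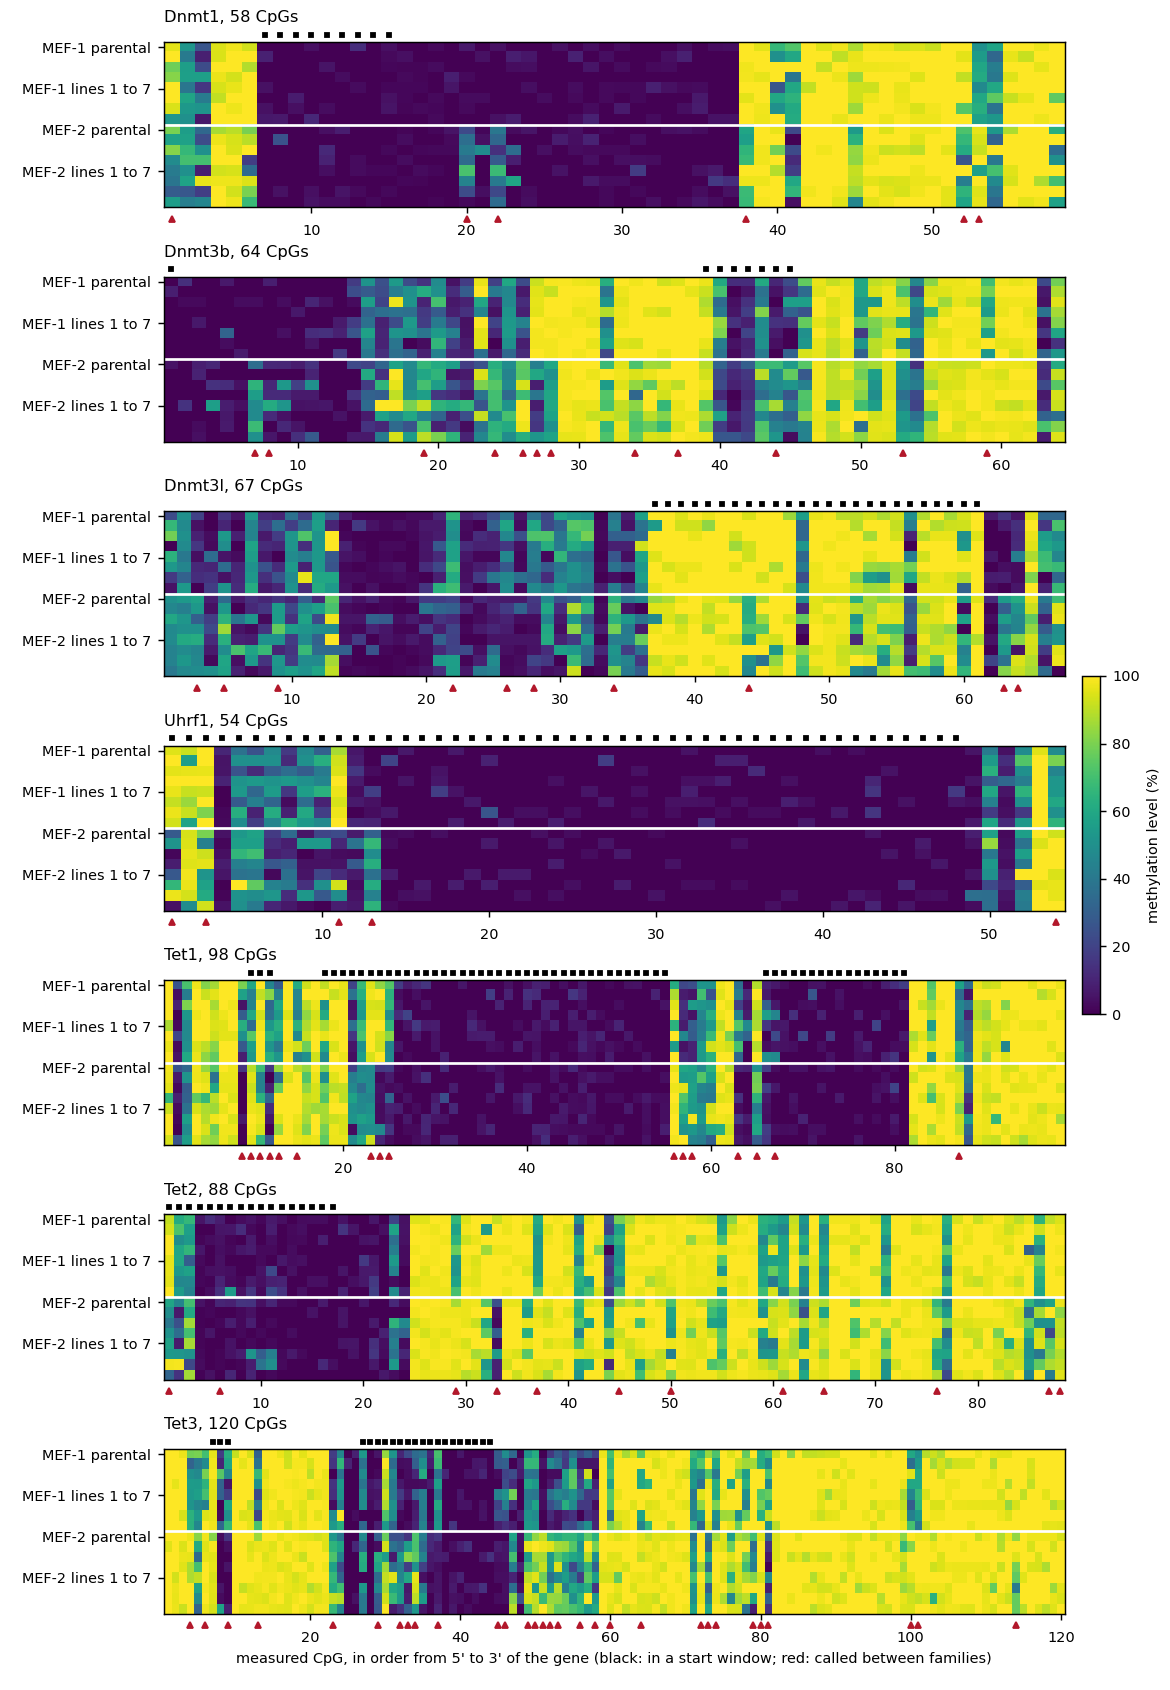
Methylation level (%, colour) of every measured CpG of the 7 genes, ordered 5′ to 3′ along each gene on the horizontal axis and not to scale, in the 16 libraries (rows; the parental library first, then lines 1 to 7, MEF-1 above the white line and MEF-2 below). Black squares mark CpGs in a start window and red triangles the 91 CpGs called between the families; dark unmethylated blocks are bordered by columns in which the families or single lines differ.

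Fidelity, counted as the share of the 14 clonal lines at 0 to 10, 40 to 60 or 90 to 100%, averaged 0.840 over the 549 CpGs and 0.833 over all CpGs. It was highest at Dnmt1 with 0.906, followed by Uhrf1 with 0.893, Tet2 with 0.879, Tet1 with 0.873 and Tet3 with 0.849. Dnmt3b with 0.740 and Dnmt3l with 0.724 stood below the other genes and below the table as a whole. These 2 genes also held the largest shares of intermediate CpGs, 50.0% at Dnmt3b and 53.7% at Dnmt3l, and at intermediate levels this measure is low by its construction unless lines sit near 50%.

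The clonal lines of the 2 families were compared at every CpG of the table with a quasi-binomial model of the read counts, and a CpG was called when its Benjamini-Hochberg adjusted p over all CpGs was under 0.05. Among the members 91 of 549 CpGs were called, or 16.6%, against 20.2% of all CpGs. With at least 20 reads in every library the shares were 23.9% of 226 member CpGs and 23.2% of all CpGs, so the members did not stand below the table at both depths. Of the 91, 39 had the higher level in MEF-1 and 52 in MEF-2, whereas 11.6% of all CpGs were called with the higher level in MEF-1 and 8.53% with it in MEF-2. Tet3 accounted for most of the excess toward MEF-2, with 22 of its 30 called CpGs higher in MEF-2. The other 6 genes held 31 CpGs called toward MEF-1 and 30 toward MEF-2.

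By gene, 30 of 120 CpGs were called at Tet3, 12 of 64 at Dnmt3b, 16 of 98 at Tet1, 10 of 67 at Dnmt3l, 12 of 88 at Tet2, 6 of 58 at Dnmt1 and 5 of 54 at Uhrf1. As shares these ran from 25% at Tet3 to 9.26% at Uhrf1. Introns held 63 of the called CpGs, exons 21 and the upstream parts 7. At 87 of the 91 the parental libraries, which were not in the test, differed in the same direction as the lines, a share of 95.6% against 95.4% of all called CpGs. The lines of the families did not overlap at 40, or 44% against 46.5% of all called CpGs, and the means differed by 50 points or more at 12, or 13.2% against 21.5%.

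**Figure D2:**
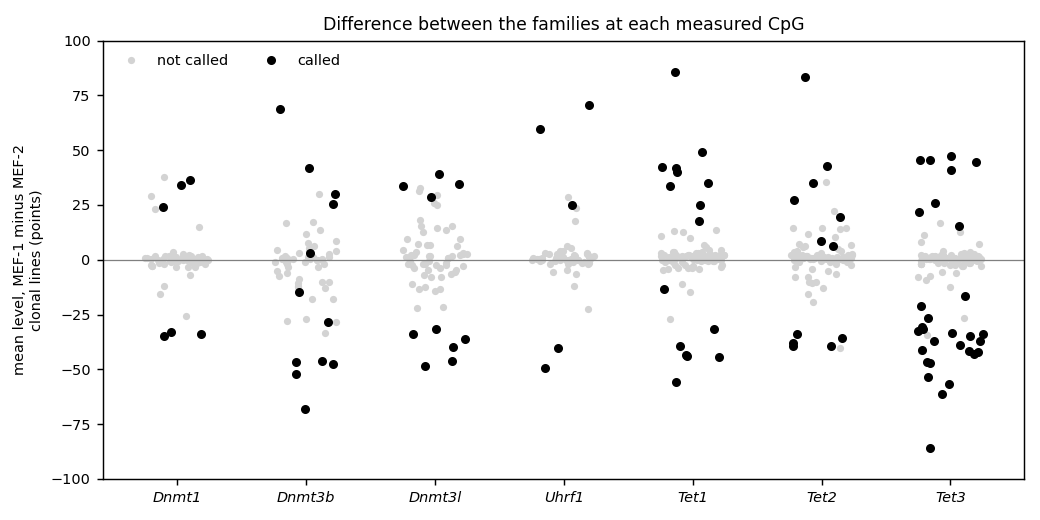
Difference in mean level between the 7 MEF-1 and the 7 MEF-2 clonal lines (points, vertical axis) at each measured CpG of each gene (horizontal axis), with called CpGs in black and the others in grey. Most CpGs lie near 0, and called CpGs reach 85.7 points at Tet1 and -85.9 points at Tet3.

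For whole promoters and bodies, starts of a gene within 500 bp of each other were taken as 1 start, numbered 5′ to 3′ along the gene, and the start window ran from 1000 bp before the first to 500 bp after the last of them. The 7 genes had 31 start windows, of which 18 held no measured CpG, 1 held too few to test and 12 were tested together with the 7 gene bodies. Among the 12 start windows 7 were called, against 44.5% of the start windows of all protein-coding genes. Among the 7 bodies 3 were called, against 49.5% of all bodies. An exact permutation test of the mean CpG level over lines, adjusted in the same way, called 9 of the 19 regions, or 47.4%, against 52% of all regions. Of the 10 called regions only Tet3 start 2 differed by more than 10 points.

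**Figure D3:**
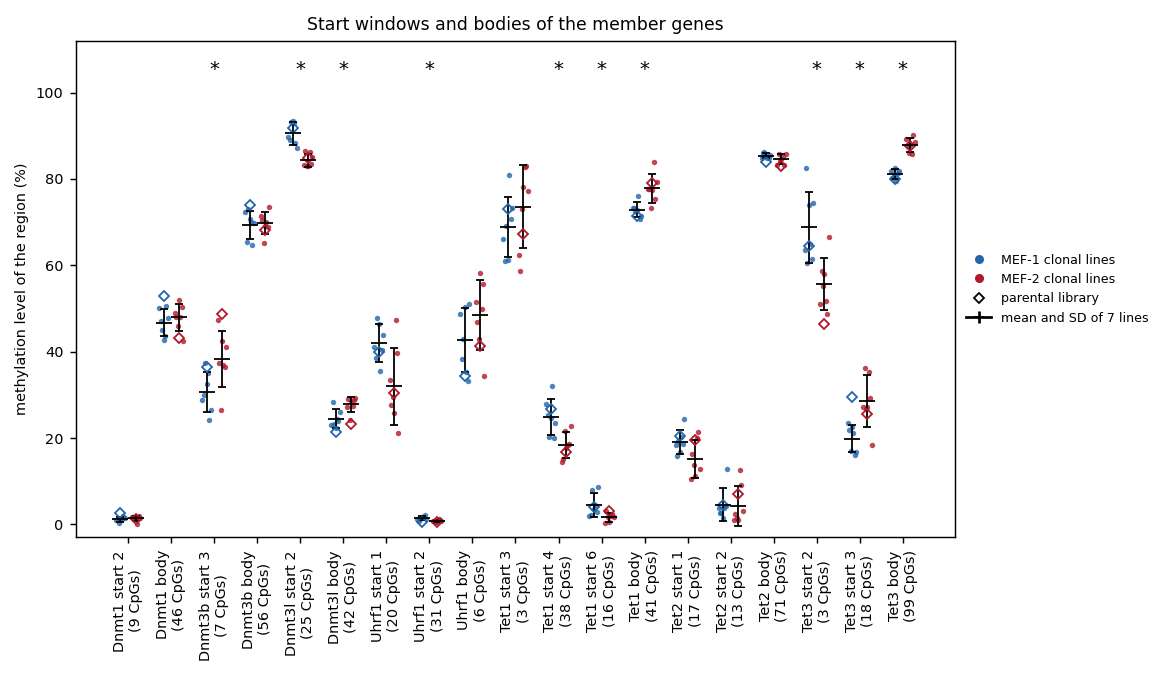
Methylation level (%, vertical axis) of each tested start window and gene body (horizontal axis, with its number of CpGs), with 1 point per clonal line, MEF-1 in blue and MEF-2 in red, open diamonds for the parental libraries, and the mean and SD of the 7 lines in black. Stars mark the 10 regions called between the families; the families do not overlap at Dnmt3l start 2 and the Tet3 body.

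The maintenance genes had the highest fidelity and the lowest shares of called CpGs. They also held the largest shares of CpGs under 10%, 50.0% at Dnmt1 and 70.4% at Uhrf1, against 38.7% over all CpGs. Fidelity is high at such levels by its construction, and none of the 35 CpGs of the unmethylated Uhrf1 stretch was called. Whether the rankings hold among CpGs of like level was not tested. Dnmt1 (ENSMUSG00000004099, chr9:20907209-20959888, minus strand) had no measured CpG in the window of its first start, and its second start, used by 4 transcripts, was represented by 9 of 73 reference CpGs. These 9 CpGs all lay past this start, 676 bp or more from the first of its transcript starts. No CpG before it was measured in the window. The 9 CpGs stood at 1.18% ± 0.495 (SD, n = 7) in MEF-1 and 1.42% ± 0.648 (SD, n = 7) in MEF-2 lines. The lines of the families overlapped and the difference was not called (quasi-binomial adjusted p = 0.623). The low window belonged to a longer unmethylated stretch of 31 CpGs, chr9:20951445-20952304, that reached 1534 bp past the start, and 29 of its CpGs averaged under 10%.

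Inside this stretch lay exceptions, foremost 3 neighbouring CpGs in an untranslated exon at chr9:20951898-20951914, more than 1 kb past the start. They ranged from 0 to 2.00%, with a median of 0.935%, in MEF-1 lines, and from 11.4 to 48.3%, with a median of 25%, in MEF-2 lines, so the families did not overlap. The parental libraries stood at 3.66% and 20.9%. The first and last of the 3 were called. The middle one, chr9:20951904, had a median of 0% in both families but was at 48.5% in MEF-2 line 2, against 1.79% in the parental library. Next to these 3 CpGs chr9:20951864 was at 58.3% in MEF-2 line 5 against 2.94% in the parental library. Of the called CpGs, chr9:20951913 averaged 1.12% ± 1.41 in MEF-1 lines and 36.2% ± 21.1 in MEF-2 (quasi-binomial adjusted p = 0.00189). Among MEF-2 lines it ran from 2.17% in line 7 to 71.4% in line 4, so the lines of this family were uneven. Toward its end Dnmt1 was methylated, with 17 CpGs of its last measured exons and introns, chr9:20916051-20918273, at 94.1% ± 1.22 in MEF-1 lines and 92.1% ± 2.86 in MEF-2 lines (SD, n = 7). The body as a whole, 46.7% in MEF-1 lines and 48.0% in MEF-2, mixed the unmethylated stretch with these methylated exons and was not called (quasi-binomial adjusted p = 0.666).

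The largest difference in favour of MEF-1 at Dnmt1 was at chr9:20961698, at -1810 bp from the first start. It ranged from 52.6 to 100% in MEF-1 lines with a median of 94.3%, and from 29 to 81.8% in MEF-2 lines with a median of 48.1% (quasi-binomial adjusted p = 0.0172). The lines overlapped, and the lowest coverage behind it was 11 reads.

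Uhrf1 (ENSMUSG00000001228, chr17:56303321-56323486, plus strand) joined a fully unmethylated promoter to a mixed upstream flank. A stretch of 35 CpGs from chr17:56303110 to 56304250 averaged 1.53% ± 0.479 in MEF-1 lines and 0.903% ± 0.294 in MEF-2 lines (SD, n = 7), and each of its 35 CpGs averaged under 10%. The window of start 2, which lies in it, was called with a difference of 0.609 points (quasi-binomial adjusted p = 0.0433). That difference is under 1 point, and it was no longer called without MEF-1 line 4, 5 or 6 or without MEF-2 line 1, 2, 3, 4 or 7 (quasi-binomial adjusted p = 0.0541 to 0.153), nor without MEF-1 lines 1, 4 and 5 together (adjusted p = 0.138). The windows of starts 1 and 2 overlap and share CpGs.

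Upstream of this stretch, 13 CpGs from chr17:56302431 to 56302910, which include the printed Uhrf1 window, were mixed. They ranged from 45.3 to 59.0%, with a median of 53.0%, in MEF-1 lines and from 27.0 to 54.8%, with a median of 36.1%, in MEF-2 lines. MEF-2 lines 5 and 6, with 54.8% and 49.2%, lay among the MEF-1 lines, and the parental libraries stood at 52.4% (95% Wilson interval 48.2 to 56.6) and 38.6% (35.0 to 42.2). These intervals cover counting error only. The window of start 1, of which this flank is a part, had 42% ± 4.40 in MEF-1 lines and 32% ± 8.90 in MEF-2 and was not called (quasi-binomial adjusted p = 0.0638). Without MEF-2 line 5 it was called (quasi-binomial adjusted p = 0.0106), as it was without line 6 (adjusted p = 0.0408).

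Within this flank single CpGs moved in opposite directions. At chr17:56302845, inside the printed window and at -476 bp from start 1, all MEF-1 lines were at 92.9 to 100%, while MEF-2 lines ranged from 2.78 to 93.3% with a median of 10.7%. At chr17:56302909, the last CpG of the printed window, MEF-1 lines were at 0 to 18.5% with a median of 3.33% and MEF-2 lines at 37.0 to 66.7% with a median of 62.1%. The adjusted p were 0.00211 and 7.16e-05, with differences of 70.6 and -49.5 points. The farthest CpG measured, chr17:56302431, was at 91.1 to 100% in MEF-1 lines and anywhere from 1.75% in line 2 to 97.3% in line 6 of MEF-2. Coverage around Uhrf1 was 0.81 of that expected in MEF-1 line 1, and without this line 4 of the 5 called CpGs were called.

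**Figure D4:**
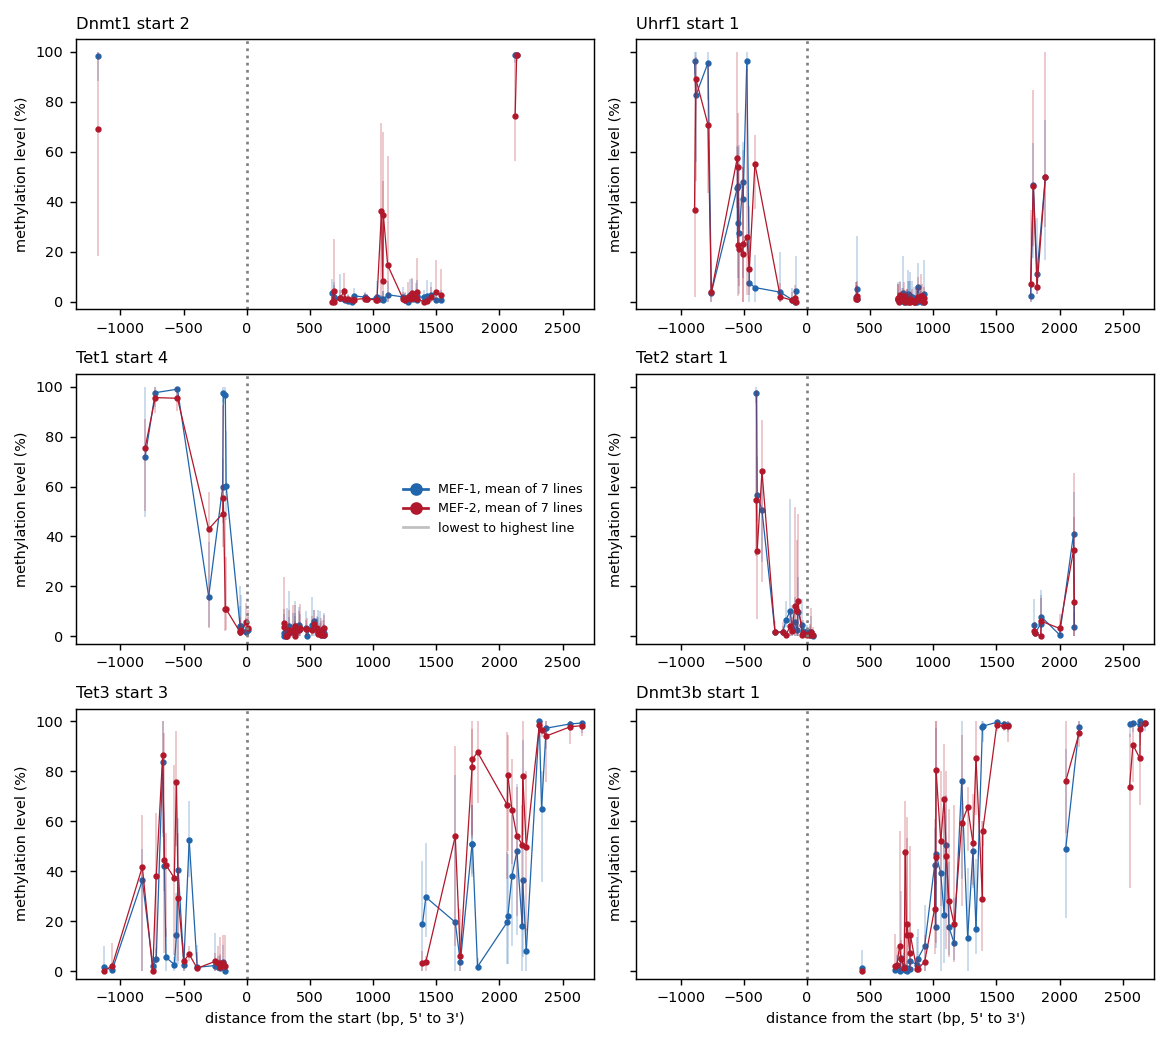
Mean methylation level (%, vertical axis) of the 7 MEF-1 (blue) and 7 MEF-2 (red) clonal lines at each measured CpG around the main measured starts, by distance from the start (bp, horizontal axis, 5′ to 3′), with pale bars from the lowest to the highest line and lines joining CpGs up to 250 bp apart. Near each of these 6 starts there is a run of CpGs near 0%, past the start at Dnmt1 and Dnmt3b and before it at Tet3. The families and lines part mostly outside this run, at Dnmt1 also inside it.

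The de novo genes were mixed over much of what was measured. Dnmt3b (ENSMUSG00000027478, chr2:153649450-153687730, plus strand) had 10 coding transcripts at its first start, but only 1 of the 116 reference CpGs of that window was measured. This CpG was at 0 to 8.33% in all 16 libraries. From 433 bp past the start the measured CpGs formed a ramp, mostly in introns, with a low stretch of 14 CpGs, a mixed stretch of 14 and a methylated stretch of 10.

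The low stretch, chr2:153649883-153650383, averaged 2.63% ± 2.56 in MEF-1 lines and 9.29% ± 6.67 in MEF-2 lines (SD, n = 7). MEF-2 line 4 with 21.2% and line 2 with 15.2% were the highest, and the other 5 MEF-2 lines, at 1.33 to 7.69%, lay inside the MEF-1 range of 0.410 to 7.96%. Of the 14 CpGs of this stretch, 11 lie inside Dnmt3bos, an antisense gene on the other strand. The mixed stretch, chr2:153650460-153650842, had nearly the same sum in both families, 50.9% ± 5.33 and 50.5% ± 6.63, with lines from 43.5 to 56.6% and from 39.1 to 58.4%. The methylated stretch, chr2:153650952-153652125, averaged 96.9% ± 0.819 and 92.9% ± 2.72.

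The even sum of the mixed stretch hid CpGs that differed strongly in opposite directions, and 5 of its 14 were called. At chr2:153650788, 1338 bp past the start, MEF-1 lines were at 6.67 to 44.7% with a median of 12.1% and MEF-2 lines at 62.5 to 100% with a median of 94.1%. At chr2:153650839, 1389 bp past the start, MEF-1 lines were at 95.6 to 100% with a median of 98.1% and MEF-2 lines at 7.89 to 60% with a median of 17.8%. Neither pair of ranges overlapped, and the differences were -68.3 points (quasi-binomial adjusted p = 0.000631) and 69.0 points (adjusted p = 9.46e-05) on coverage of at least 30 and 45 reads. The parental libraries differed in the same directions, with 22.7% against 75.6% and 91.9% against 43.1%. The next CpG, chr2:153650841, kept the MEF-1 level of 91.7 to 100% and stood at 50.0 to 60.3% in every MEF-2 line. Mean fidelity in this stretch was 0.587.

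The third Dnmt3b start, that of 1 transcript with a retained intron, had 7 measured CpGs at 30.7% ± 4.69 in MEF-1 lines and 38.3% ± 6.47 in MEF-2 lines (SD, n = 7). It was called (quasi-binomial adjusted p = 0.0343) but the lines overlapped, and it was no longer called without MEF-1 line 1, 2, 6 or 7 or without MEF-2 line 1, 4 or 7 (adjusted p = 0.0572 to 0.0752), nor without MEF-1 lines 1, 4 and 5 together (adjusted p = 0.0799). The body was at 69.4% ± 3.21 and 69.7% ± 2.57 and was not called on summed reads (quasi-binomial adjusted p = 0.718). Weighting its 56 CpGs equally gave a difference of -3.59 points that was called (adjusted p = 0.0455 by the exact permutation test over lines). Coverage around Dnmt3b was 0.79 of that expected in MEF-2 line 3 and 0.89 in MEF-1 line 7. Without the first 10 of the 12 calls remained, and without the second 9.

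Dnmt3l (ENSMUSG00000000730, chr10:78041947-78063622, plus strand) had the lowest mean fidelity of the 7 genes, 0.724. No CpG was measured in the window of its first start. A block of 32 CpGs in an intron, chr10:78043336-78043859, was mixed at 23.8% ± 2.89 in MEF-1 lines and 24.1% ± 1.39 in MEF-2 lines (SD, n = 7). Of these, 21 lie inside Aire, a gene for a transcription factor of the thymus that runs on the other strand, and the block spans the start of Aire, so the level cannot be assigned to 1 of the 2 genes. In its middle 7 CpGs stayed low at 3.06% ± 1.29 and 6.19% ± 3.86, with 12.5% in MEF-2 line 2 as the highest line. Around this core levels in single lines ran over the whole scale, and mean fidelity over the block was 0.670.

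The families differed at 6 CpGs of this block, 3 in each direction, and its sum differed by only -0.283 points. In the printed Dnmt3l window chr10:78043682 was at 33.3 to 72.2% in MEF-1 lines, with a median of 42.3%, and at 2.33 to 20.4% in MEF-2 lines, with a median of 5.26%. The ranges did not overlap (difference 39.1 points, quasi-binomial adjusted p = 0.000417). The parental libraries were less far apart, with 38% and 16.7%.

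Start 2 of Dnmt3l, used by 2 coding transcripts, had 25 of its 34 reference CpGs measured, and their summed level was high. Single CpGs were lower, among them chr10:78050024 with medians of 41.9% in MEF-1 lines and 25.7% in MEF-2 lines. Over the 25 CpGs MEF-1 lines ranged from 87.3 to 93.5% with a median of 89.6%. MEF-2 lines ranged from 82.9 to 86.4% with a median of 83.5%, and the families did not overlap. The parental libraries stood at 91.7% and 84.9%. The difference of 6.21 points was called (quasi-binomial adjusted p = 0.00125), and chr10:78049163, the 1 called CpG of the window, was at 98.0% ± 3.49 in MEF-1 lines and 64.2% ± 17.9 in MEF-2. In the body, 24.5% ± 2.12 in MEF-1 lines and 27.8% ± 1.79 in MEF-2 lines, the difference was in the other direction and was called (quasi-binomial adjusted p = 0.0182), though not without MEF-1 lines 1, 4 and 5 (adjusted p = 0.144). Of the 42 CpGs of this body, 32 are the block that spans the start of Aire, so its level is largely that of the block. The block itself differed by only -0.283 points. An intron pair of the body at chr10:78051936-78051986 had 2.99 to 26.9% in MEF-1 lines and 28.4 to 86.6% in MEF-2 lines. Its first CpG, chr10:78051936, had a median of 0% in MEF-1 lines and 54.3% in MEF-2 lines (difference -48.7 points, quasi-binomial adjusted p = 0.000359).

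Among the erasers, Tet1 (ENSMUSG00000047146, chr10:62804570-62908996, minus strand) has 7 annotated starts over its length, and 3 of them had enough CpGs to compare. The first 2 had no measured CpG. The levels of the others were ordered start 3, start 4 and start 6, with 68.9%, 24.8% and 4.53% in MEF-1 lines and 73.6%, 18.4% and 1.69% in MEF-2 lines. Every line held this order. Start 3 rested on 3 of 11 reference CpGs and was not called between the families (quasi-binomial adjusted p = 0.413).

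Start 4, of 2 coding transcripts, had the most measured CpGs of any start of the 7 genes, 38 of 62 reference CpGs. Its core of 30 CpGs, chr10:62886901-62887566, was unmethylated in both families, at 2.38% ± 0.609 in MEF-1 lines and 2.29% ± 0.651 in MEF-2 lines (SD, n = 7), and none of its CpGs was called. The next 5 CpGs upstream, chr10:62887676-62887815, the first 5 CpGs of the printed Tet1 window, were at 52.9 to 70.4% in MEF-1 lines with a median of 60.1% and at 30.4 to 44.5% in MEF-2 lines with a median of 32.9%. The parental libraries stood at 63.9% (95% Wilson interval 58.4 to 69.0) and 29.3% (24.9 to 34.1). Beyond them 3 CpGs returned to 91.2% ± 5.78 and 89.7% ± 3.79.

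The step was sharpest at 3 consecutive CpGs, chr10:62887676-62887699, that were all called, between -186 and -164 bp from the start. MEF-1 lines ranged from 80.6 to 92.2% with a median of 84.9% and MEF-2 lines from 19.5 to 38.1% with a median of 21.6%, a difference of 58.9 points without overlap. The parental libraries were at 84.4% and 27.8%. At the middle one, chr10:62887682, 6 MEF-2 lines were between 2.33 and 10.5% and line 6 was at 47.6%, while MEF-1 lines were at 92.9 to 100% (difference 85.7 points, quasi-binomial adjusted p = 7.86e-05). At the one farthest from the start, chr10:62887698, 6 MEF-2 lines stood at 45.3 to 54.1% and line 7 at 92.5%.

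The whole window of Tet1 start 4 was therefore higher in MEF-1, 24.8% ± 4.22 against 18.4% ± 3.03 (quasi-binomial adjusted p = 0.0222), but not past the threshold without MEF-1 lines 1, 4 and 5 (adjusted p = 0.144), of which lines 1 and 5 had the highest windows of all, 28% and 32%. In the intron downstream the direction turned. At chr10:62884019-62884059, 3454 to 3493 bp past start 4, another 3 consecutive called CpGs were at 22.6 to 55.8% in MEF-1 lines and at 67.2 to 85.1% in MEF-2 lines, a difference of -37.1 points. The parental libraries had 34.9% and 70.9% there, and the families did not overlap.

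Start 6 of Tet1, of a transcript that codes for no protein, was a second unmethylated island in the middle of a methylated gene. Over 14 CpGs, chr10:62865212-62865799, it was at 2.39% ± 0.710 in MEF-1 lines and 1.21% ± 0.769 in MEF-2 lines (SD, n = 7). At its border 2 CpGs, chr10:62865832-62865855, were raised to 50.0% in MEF-1 line 3 and 48.9% in MEF-1 line 7, while the other MEF-1 lines were at 3.12 to 17.2% and MEF-2 lines at 0 to 12.5%. The window of start 6 was called at 4.53% against 1.69% (quasi-binomial adjusted p = 0.0401) and lost the call without MEF-1 line 3, 5 or 7 or without MEF-2 line 1, 3, 4, 5 or 7 (adjusted p = 0.0590 to 0.0839), as it did without MEF-1 lines 1, 4 and 5 together (adjusted p = 0.0566). The body of Tet1 was at 72.9% ± 1.69 in MEF-1 lines and 77.8% ± 3.34 in MEF-2 (quasi-binomial adjusted p = 0.0121). With its CpGs weighted equally that difference fell to -2.06 points and was not called (adjusted p = 0.0596, exact permutation test). The 3 called CpGs at chr10:62884019-62884059 lie in this body, with 113 to 239 reads per library against 1081 to 1733. The body without these CpGs was not tested. Coverage around Tet1 and Dnmt3l was 1.15 of that expected in MEF-2 line 4, and 13 of the 16 called CpGs of Tet1 and 7 of the 10 of Dnmt3l remained without this line.

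Tet2 (ENSMUSG00000040943, chr3:133463679-133545139, minus strand) had the plainest profile, an unmethylated promoter and a methylated intron. Its starts 1 and 2 lie close together and their windows share CpGs. The unmethylated stretch of 19 CpGs, chr3:133543139-133545393, was at 4.05% ± 2.8 in MEF-1 lines and 3.75% ± 3.55 in MEF-2 lines (SD, n = 7). Neither start window was called (19.1% against 15.1%, quasi-binomial adjusted p = 0.175, and 4.54% against 4.36%, adjusted p = 0.911). Within the unmethylated stretch 1 of the 19 CpGs was called (smallest quasi-binomial adjusted p of the stretch 0.00228). At chr3:133545304 in this stretch MEF-1 lines were at 3.77 to 14.0% and MEF-2 lines at 0 to 1.82%, without overlap. The 64 CpGs of the first measured introns, chr3:133491383-133540430, were at 88.5 to 90.9% in MEF-1 lines and 87.7 to 89.7% in MEF-2 lines.

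The promoter of Tet2 was nevertheless raised in 3 single lines. Over 3 CpGs between -96 and -72 bp from start 1, MEF-2 line 5 was at 42% and line 6 at 31%, while the other 5 MEF-2 lines were at 0.735 to 4.32% and the parental culture at 9.94% (95% Wilson interval 6.21 to 15.5). Over these 3 CpGs MEF-1 line 7 was at 14.2% and the other MEF-1 lines at 0.820 to 8.26%. The larger rise in MEF-1 line 7 was at another CpG, chr3:133545272, at -133 bp from start 1. There it was at 55.1%, against 0 to 6.00% in the other MEF-1 lines and 0% in the parental culture. Part of this region is shared with Gm42567, an antisense gene on the other strand that holds 16 of the 88 Tet2 CpGs.

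Farther upstream the printed Tet2 window held 1 called CpG at its edge. Its first CpG, chr3:133545539, was at 97.5% ± 2.53 in MEF-1 lines and 54.5% ± 21.2 in MEF-2 lines. Over the 3 CpGs from chr3:133545495 to 133545540 MEF-1 lines were at 58.7 to 72.9% and MEF-2 lines at 40.3 to 67.6%, so the sums overlapped. The other two CpGs were not called, and chr3:133545495 had the lower median in MEF-1 lines, 54.1% against 70.3%.

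Inside the methylated intron of Tet2 single CpGs stood out. At chr3:133536063, 8327 bp past start 2, MEF-1 lines were at 97.5 to 100% and MEF-2 lines at 2.63 to 54.5% with a median of 9.09% (difference 83.4 points, quasi-binomial adjusted p = 2.72e-05). At chr3:133535751, 8639 bp past that start, MEF-1 lines were at 50.9 to 77.1% with a median of 54.2% and MEF-2 lines at 94.2 to 100% with a median of 98.1% (difference -39.6 points, quasi-binomial adjusted p = 3.58e-06). The second is 1 of a group of CpGs that stood at an intermediate level in the lines of a family and at a high level in the other.

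By a rule set after the values were seen, such a CpG averaged 40 to 65% with a range of at most 50 points in 1 family and averaged 85% or more in the other. Of the 549 member CpGs, 13 had the intermediate level in MEF-1 and 4 had it in MEF-2. Over all 1203687 CpGs the counts were 22193 and 16663, or 1.84% and 1.38%. The member counts are small and were not tested against the table. Tet2 had 5 of the 13, all in introns and not next to each other, Tet3 had 4, Tet1 had 2 and Dnmt1 and Uhrf1 had 1 each. At chr3:133533720 in Tet2, for example, MEF-1 lines were at 45.8 to 72.2% and MEF-2 lines at 91.3 to 100%, although the parental libraries were close, with 80% and 85.2%.

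Tet3 (ENSMUSG00000034832, chr6:83362373-83459084, minus strand) had the highest share of called CpGs of the 7 genes, although its median difference between the families over all its CpGs, 2.02 points without regard to sign, was below the 6.98 points of Dnmt3l and the 6.91 points of Dnmt3b. Its first start had no measured CpG. The second, of 1 coding transcript in a window with 165 reference CpGs, was represented by only 3 CpGs at 68.8% ± 8.26 in MEF-1 lines and 55.8% ± 6.03 in MEF-2 lines (SD, n = 7). It was called (quasi-binomial adjusted p = 0.0180), but not without MEF-1 lines 1, 4 and 5 (adjusted p = 0.0655), and the 3 CpGs leave most of the window unmeasured. One of them, chr6:83457304, was called, with 43.3% ± 22.8 in MEF-1 lines and 2.45% ± 3.36 in MEF-2.

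The third start of Tet3, shared by 3 transcripts of which 1 codes for protein, had an unmethylated core. Its 7 CpGs just upstream, chr6:83441852-83442072, were at 1.70% ± 1.44 in MEF-1 lines and 2.72% ± 1.75 in MEF-2 lines (SD, n = 7). The 9 CpGs beyond, chr6:83442134-83442396, the printed upstream window, were at 21.8 to 33.6% in MEF-1 lines with a median of 26.0% and at 28.1 to 49.0% in MEF-2 lines with a median of 44%. The sums of the parental libraries were close, with 36.3% (95% Wilson interval 31.9 to 40.9) and 35.8% (31.5 to 40.3). The processed transcript B230319C09Rik on the other strand covers these CpGs and the core.

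Within this border the families again crossed. At 3 consecutive called CpGs, chr6:83442235-83442319, MEF-1 lines were at 3.38 to 18% with a median of 4.94% and MEF-2 lines at 33.7 to 71.6% with a median of 52.2%. The parental libraries differed in the same direction there, with 23.8% (95% Wilson interval 18 to 30.8) and 38.3% (31.3 to 45.9). At chr6:83442134, nearer the start, MEF-1 lines were at 37.8 to 68% and MEF-2 lines at 3.85 to 10.0% (quasi-binomial adjusted p = 1.63e-05). The whole window of start 3 was lower in MEF-1, 19.8% ± 3.10 against 28.6% ± 6.00 (quasi-binomial adjusted p = 0.0112). The parental libraries went the other way in this window, with 29.5% (95% Wilson interval 26.1 to 33.2) in MEF-1 and 25.5% (22.5 to 28.7) in MEF-2, as in no other of the 10 called regions.

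**Figure D5:**
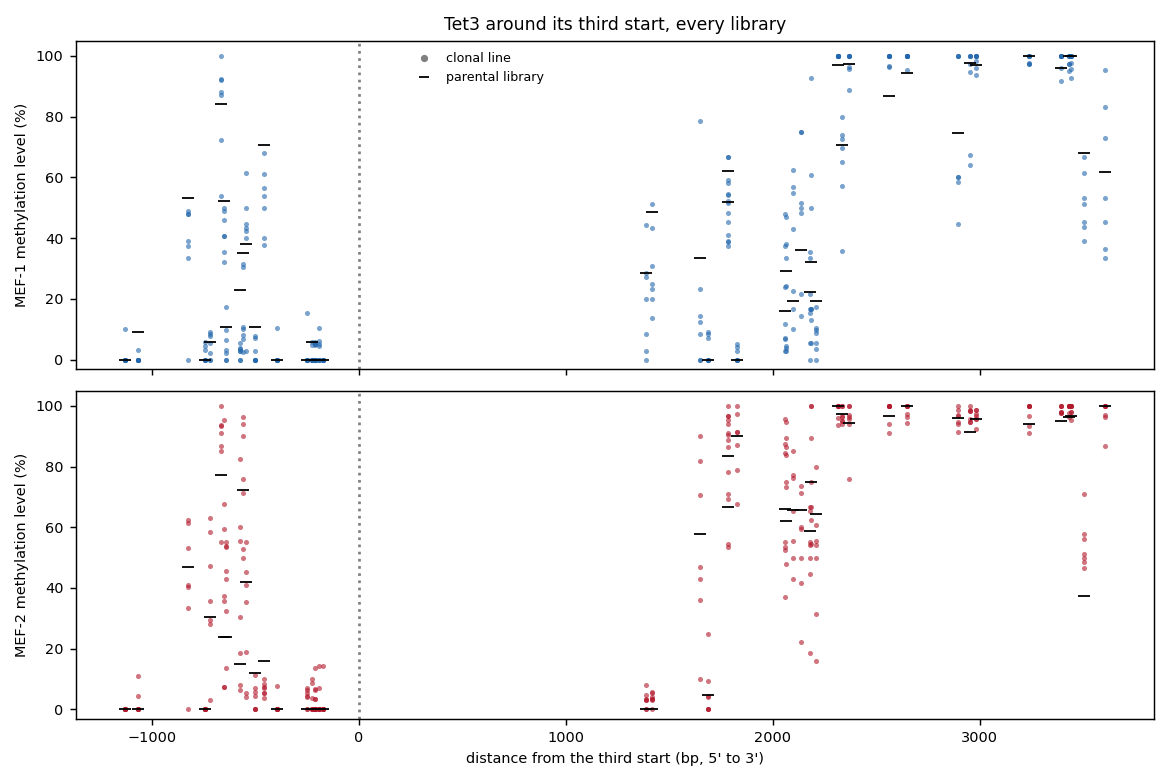
Methylation level (%, vertical axis) of the 7 clonal lines (points) and of the parental library (bar) at each measured CpG around the third start of Tet3, by distance from that start (bp, horizontal axis, 5′ to 3′), MEF-1 above and MEF-2 below. From 1783 to 2066 bp past the start the 5 called CpGs average 27.8% in MEF-1 lines and 79.9% in MEF-2 lines, while farther on most CpGs of both families are above 90%.

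Downstream of the third start lay the longest run of called CpGs of the 7 genes. The 5 consecutive CpGs of the printed downstream window, chr6:83439612-83439896, were at 16 to 41.4% in MEF-1 lines with a median of 26.3% and at 68.8 to 95.8% in MEF-2 lines with a median of 78.3%. The families did not overlap, the difference was -52.1 points, and the parental libraries, at 30.1% and 73.1%, differed in the same way. The largest single difference in the 7 genes was at its CpG chr6:83439852, where MEF-1 lines were at 0 to 5.26% and MEF-2 lines at 67.5 to 100% with a median of 91.4% (difference -85.9 points, quasi-binomial adjusted p = 3.02e-06). With the 7 CpGs that follow, the stretch chr6:83439345-83439896 had 37.0% ± 5.88 in MEF-1 lines and 75.4% ± 8.49 in MEF-2, and 8 of its 12 CpGs were called.

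In 2 stretches of coding exon of Tet3 the summed level was high in every line. In the 16 CpGs of chr6:83404508-83404721 the lines ranged from 96.3 to 99.7%, with no CpG called. In the 20 CpGs of chr6:83368052-83368368 they ranged from 94.5 to 99.1%, with 2 called. Within the second stretch chr6:83368367 was at 40 to 67.6% in MEF-1 lines with a median of 59.5%, against 90.6 to 100% in MEF-2 lines. The body of Tet3 over 99 CpGs was at 79.5 to 82.6% in MEF-1 lines with a median of 81.3% and at 85.7 to 90.1% in MEF-2 lines with a median of 87.9%. It includes the 12 CpGs of chr6:83439345-83439896 described above, with 212 to 392 reads per library against 2451 to 3966 over the body. The body without these CpGs was not tested. The families did not overlap, and the difference of -6.76 points was the most firmly called of the 19 regions (quasi-binomial adjusted p = 3.12e-05). Single intron CpGs went against it by a wide margin, among them chr6:83424023, at 73.8 to 100% in MEF-1 lines and 30.4 to 70.0% in MEF-2 lines (difference 47.5 points, quasi-binomial adjusted p = 0.00209). Also higher in MEF-1 were chr6:83421983, with medians of 57.6% and 13.3% (quasi-binomial adjusted p = 0.00337), and chr6:83422162, with medians of 100% and 46.7% (quasi-binomial adjusted p = 0.00599).

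Each clonal line was also compared with the parental library of its family by a two-sided Fisher exact test at each CpG. The parental cultures were sequenced once, so the test compares pairs of libraries and covers counting error only. In MEF-1, 103 of 3843 pairs of CpG and line were called among the members, or 2.68% against 3.46% over all CpGs, and in MEF-2 251 were called, or 6.53% against 6.57%. In MEF-1 55 of the calls were gains over the parental library and 48 losses, and in MEF-2 159 were gains and 92 losses. Gains were 53.4% of the member calls in MEF-1, against 50.9% over all CpGs, and 63.3% in MEF-2, against 54.8%. Calls had a median size of 36.9 points for MEF-1 and 37.0 points for MEF-2.

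By gene the calls were unequal. Dnmt3l had 24 in MEF-1 lines and 66 in MEF-2 (5.12 and 14.1% of its pairs) and Dnmt3b 14 and 46 (3.12 and 10.3%). Tet2 had 11 and 54 (1.79 and 8.77%), Dnmt1 2 and 19 (0.493 and 4.68%) and Uhrf1 5 and 16 (1.32 and 4.23%). Over all CpGs the shares were 3.46 and 6.57%. Many of the Dnmt3l calls lie in the intron block that spans the start of Aire. Tet3 was the only gene with more calls in MEF-1, 27 against 22, or 3.21 and 2.62% of its pairs. By line, MEF-1 lines 1, 4 and 5 had 4, 7 and 3 calls among the members, or 0.729, 1.28 and 0.546% against 1.49, 1.34 and 1.54% of all CpGs. MEF-1 lines 2, 3, 6 and 7 had 21 to 23, or 3.83 to 4.19% against 4.54 to 5.53%. The lines of MEF-2 had 19 to 49, or 3.46 to 8.93% against 4.68 to 7.93%. The lines with the fewest calls here also had the fewest over all CpGs.

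Most CpGs with a departure showed it in a single line, as over the whole table. In MEF-1 44 of 69 member CpGs with a call were called in 1 line, or 63.8% against 64.7% of all CpGs with a call, and 2 in 4 or more lines, or 2.9% against 4.78%. In MEF-2 86 of 144 were called in 1 line, or 59.7% against 55%, and 13 in 4 or more, or 9.03% against 9.57%. The largest departures at CpGs called in 1 line of either family were a gain at chr17:56302845 in the printed Uhrf1 window from 22.7% to 93.3% in MEF-2 line 5, a gain at chr2:153650468 in Dnmt3b from 32.7% to 100% in MEF-2 line 4, and a loss at chr3:133515190 in Tet2 from 96% to 30.8% in MEF-1 line 3.

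A single CpG departed in every line of a family. At chr10:62887814, the first CpG of the printed Tet1 window, the MEF-2 parental library was at 18.5% while 6 MEF-2 lines were at 42.6 to 57.7% and line 6 was at 3.19%. The MEF-1 parental library was at 20.2%, and MEF-1 lines fell into 37.9%, 36.5% and 15.8% in lines 1, 4 and 5 and 3.66 to 6.33% in the others. At chr10:78043466 in Dnmt3l, 6 of the 7 MEF-2 lines were called, with 50.8 to 76.2% against 14.9% in the parental library and 10.4% in line 5.

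The spread among the lines of a family was described without a test by counting CpGs whose lines ranged over 50 points or more. Among the members there were 54 in MEF-1, or 9.84% against 11.4% of all CpGs, and 99 in MEF-2, or 18% against 17% of all CpGs. Dnmt3b with 22 of 64 CpGs and Dnmt3l with 21 of 67 in MEF-2 were the widest, at 34.4% and 31.3%. These 2 genes also held the largest shares of intermediate CpGs, 50.0% and 53.7%, and spread at like levels was not compared. Of the 67 Dnmt3l CpGs, 32 are the block that spans the start of Aire. Tet1 was the narrowest in MEF-2 with 7 of 98. Tet1 and Tet3 were the only genes with more such CpGs in MEF-1 than in MEF-2, by only 9 to 7 and 16 to 15.

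Other genes of the pathway, from a list of 37 readers, cofactors and repair enzymes, were examined at their start windows for comparison. Of these, 27 had a tested window, 17 of their 43 windows were under 10% in all 16 libraries, against 32.4% of all tested start windows, and 12 windows were called, 4 higher in MEF-1 and 8 higher in MEF-2, against 44.5% called of all tested start windows. None of the called windows differed by 20 points. Examples of called windows were those of Zbtb38 and Zbtb4, both zinc finger proteins that bind methylated DNA, with 46.6% in MEF-1 lines and 57.6% in those of MEF-2 at Zbtb38 start 5, and 33.6% and 44.5% at Zbtb4 start 1. The other tested windows of these genes, Zbtb38 starts 1 and 4 and Zbtb4 start 2, were not called. The window of Pcna, the replication clamp, was also called, at 2.30% in MEF-1 lines and 1.32% in those of MEF-2. Cdca7, a partner of the remodeller HELLS, was under 3% on average in both families at start 1 and at 93.8% and 96.4% at start 3, and neither window was called.

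For start windows that ranged over 20 points or more over the 14 clonal lines, the windows of other genes with the most similar levels were listed by Pearson r over the 14 lines, which share family and capture. Uhrf1 start 1 was most like windows of Pax6 (r = 0.92), Tcaf1 and Casz1 (both r = 0.88). Tet3 start 2 was most like Ddx39, Oxa1l (both r = 0.93) and Tmem170 (r = 0.92), and Tet3 start 3 most like B3gnt2 (r = 0.88), Caap1 and Sv2b (both r = 0.87). Dnmt3b start 3 was most like Map4k1 (r = 0.88), Cdk9 (r = 0.87) and Ctdspl (r = 0.86), and Tet1 start 3 most like Ntrk3 (r = 0.79) and Armh4 (r = 0.78). These were picked as the highest of all windows and are a description. Ddx39 stood at 1.60% and 1.12% in MEF-1 and MEF-2 against 68.8% and 55.8% at Tet3 start 2, so likeness in order across lines did not mean likeness in level.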

How the data were processed

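Target capture bisulfite sequencing of genomic DNA was analysed from 16 libraries, 1 parental and 7 clonal libraries in each of 2 families. Per the labels and the methods of the study, the authors captured targets with the SureSelectXT Methyl-seq kit, trimmed reads with Trim Galore 0.6.0, aligned to mm10 by Bismark, discarded alignments of mapping quality under 10, combined the strands, worked in R 3.6.1 and deposited methylated and unmethylated read counts per CpG, kept at 10 reads or more in every library. Removal of PCR duplicates is not given in the sources used here, so reads may not be independent molecules and intervals cover counting error only. Chromosomes 12, 18, 19, X and Y are not in the series table and were not analysed here. The series table also held 2 columns of per-sample values that were not used.

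The level of a CpG was the methylated share of its reads, in percent, and the level of a region the same share over the summed reads of its CpGs. The families were compared over the 14 clonal lines with a quasi-binomial logistic model (F-test, Pearson dispersion not below 1), adjusted by the Benjamini-Hochberg method over all 1203687 CpGs, or over all start windows and bodies of protein-coding genes with at least 3 CpGs, and called at an adjusted p under 0.05. Lines were compared with their parental library by Fisher's exact test, adjusted within each line. Parental intervals are 95% Wilson intervals. Coverage around a gene is that of CpGs within 5 Mb on each side, relative to the library. The analysis used Python 3.11.15, NumPy 2.4.6, SciPy 1.17.1, Numba 0.67.0 and Matplotlib 3.10.9, and the models were tested on simulated data.

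The members and gene lists were chosen with earlier results of these data known. Named by rule were all 7 genes with their regions, in each gene the called CpG with the largest difference in each direction, each run of at least 3 consecutive CpGs called in 1 direction, pathway start windows that were called and differed by at least 20 points (none did, and examples of called windows are named instead), and the 3 windows most like each member window. Some items that these rules would name are not reported here. The other stretches, the single CpGs and lines named besides these, the printed sequences and the rule for half-methylated CpGs were chosen after their values were seen. Alternatives tried were a stricter read minimum, thinning to 10 reads, other windows, other range limits, no lower limit of the dispersion, unweighted mean levels, leaving out lines, and a block for the line number.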

Additional observations from a re-analysis of the deposited data

Results flagged for a closer look

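In 3 of the 38 groups of 7 lines tested, a single line lay far from the other 6 for the size of its group, and chance alone marks about 1 group in 20. At the start 2 window of Tet2, MEF-1 line 7 was at 12.9%, with the other MEF-1 lines at 1.57 to 4.38%. At the start 2 window of Dnmt1, MEF-2 line 5 was at 0%, with the other MEF-2 lines at 1.49 to 2.01%. This window held 183 to 308 reads per library, so these levels near 0 rest on few methylated reads. In the body of Dnmt3l, MEF-2 line 3 was at 24.2%, with the other MEF-2 lines at 27.2 to 29.3%.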

How the results depend on the processing

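The 91 called CpGs became 54 at 20 reads in all libraries, where only 226 member CpGs were left, or 23.9% against 23.2% of all CpGs. Thinning gave 73, or 13.3% against 16.1%. No lower limit of the dispersion gave 109, or 19.9% against 22.3%, and reference CpGs only gave 91, or 16.6% against 20.2%. Without MEF-1 lines 1, 4 and 5 there were 66, or 12% against 14.1% of all CpGs, and 81 to 90 without any 1 line, or 14.8 to 16.4% against 18.3 to 19.3%. The 10 called regions became 6 of 17 tested with start windows of 500 bp on each side, or 35.3% against 44.4% of all regions, 4 of 19 without MEF-1 lines 1, 4 and 5, or 21.1% against 35.9%, and 7 to 11 without any 1 line, or 36.8 to 57.9% against 43.6 to 45.2%. Over 19 regions and 304 alternative values 31 fell short of the threshold, 3 came to pass it and 11 turned their direction, while 7 regions kept direction and side throughout. No region that turned was called in the report or under the alternative that turned it. With CpGs weighted equally Tet1 start 3 turned from -4.70 to 7.91 points and the Dnmt1 body from -1.23 to 0.347, and without any 1 line the Dnmt3b body (-0.319) ran from -1.09 to 0.478 and Tet2 start 2 (0.176) from -1.22 to 1.55; the cause was not tested. The line numbers do not pair the families (correlations of same-numbered lines -0.0215 to 0.0161), and a block for the line number gave 82 called CpGs, or 14.9% against 17.2% of all, and 6 called regions, or 31.6% against 41.1%. Against the parental libraries, thinning to 10 reads left 0 calls in either family, where 12 to 204 CpGs per line reached the smallest p the Fisher exact test can give with so few reads, 1.08e-05, and the smallest adjusted p of any line was 0.0639. CpGs with a wide range in MEF-1 numbered 54 in the report, 92 at 40 points, 25 at 60 points and 18 at 20 reads, and in MEF-2 99 in the report, 57 at 60 points and 41 at 20 reads. Depth limits single CpGs to coarse levels, as 10 reads give steps of 10 points.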
